A study of Mus musculus with 12 samples.

Results

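The SLAM family consists of immunoglobulin-like receptors on the surface of leukocytes, together with small adaptors that connect these receptors to intracellular kinases. The family was represented here by 8 of the 750 genes measured by nanoString, chosen by gene symbol: the receptor genes Slamf1, Slamf6, Slamf7, Cd48, Cd84, Cd244 and Ly9 and the adaptor gene Sh2d1a, which encodes SAP. The mRNA was measured in 12 breast tumors of the K14-Cre-driven Brca1 f/f;Trp53 f/f mouse model of triple-negative breast cancer, 3 tumors in each of 4 treatment groups. Pieces of these tumors had been grown in the mammary fat pad of FVB/129P2 females of matching background, and treatment began at a volume of 150 to 300 mm3. All groups shared this tumor genotype, in which Cre under the keratin 14 promoter deletes both genes in epithelial cells, so that the leukocytes of the host kept them. Vehicle mice received DMSO in saline into the peritoneum and saline into the tumor, ADU-S100 mice received 50 μg of this STING agonist in 40 μl by a single intratumoral injection, olaparib mice received 50 mg/kg of this PARP inhibitor daily by intraperitoneal injection, and combination mice received both agents. Tumors were harvested at 3 days, and 100 ng of RNA was loaded per tumor. The age of the mice was not given in the sources used here, and the tumors are named below by group and tumor number.

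Most SLAM receptors bind a receptor of the same kind on a neighboring leukocyte, and their cytoplasmic tails carry tyrosine motifs that recruit SAP or the related adaptor EAT-2. SAP couples the receptors to the kinase Fyn, and the balance between adaptors and phosphatases sets whether a receptor activates or restrains T cells and natural killer (NK) cells. CD48 differs from the others in being anchored to the membrane by a lipid and in serving as the ligand of CD244 (2B4) and CD2. SLAMF7 (CRACC) is found on NK cells, plasma cells and activated lymphoid and myeloid cells.

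The 7 receptor genes lay next to each other on mouse chromosome 1, in the order Cd244a, Ly9, Slamf7, Cd48, Slamf1, Cd84 and Slamf6, where Cd244a is the current symbol of the gene that the panel called Cd244. This stretch of the RefSeq annotation (GRCm38.p6) held 8 protein-coding genes, and the remaining one, Tma7-ps, between Cd48 and Slamf1, was not on the panel. Sh2d1a lay on chromosome X. RefSeq promoter sequences were at hand for 6 of the 8 genes, Ly9 and Sh2d1a being without an entry. The 250 bases before the annotated start of 3 genes are shown 5′ to 3′, because these genes shared a motif but differed in their mRNA values across the tumors: Slamf7 was the member with the largest difference between combination and vehicle tumors, Cd84 was among the members with the smallest, and Cd244a had the most variable normalized values of the 8 members across tumors. Capitals mark letters that match the AP-1 motif TGANTCA or the RUNX motif TGTGGT on either strand.
Slamf7, chr1:171649000-171649249, minus strand: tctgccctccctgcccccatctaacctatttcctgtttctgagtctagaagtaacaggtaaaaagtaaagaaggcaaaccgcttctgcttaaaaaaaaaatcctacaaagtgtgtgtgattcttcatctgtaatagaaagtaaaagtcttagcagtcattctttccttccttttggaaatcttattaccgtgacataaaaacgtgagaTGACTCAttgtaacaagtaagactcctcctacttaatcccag
Cd84, chr1:171839447-171839696, plus strand: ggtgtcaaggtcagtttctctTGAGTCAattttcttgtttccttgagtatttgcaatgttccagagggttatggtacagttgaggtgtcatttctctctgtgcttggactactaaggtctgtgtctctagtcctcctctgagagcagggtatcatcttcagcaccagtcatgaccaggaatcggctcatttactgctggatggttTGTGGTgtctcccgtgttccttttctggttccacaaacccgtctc
Cd244a, chr1:171558943-171559192, plus strand: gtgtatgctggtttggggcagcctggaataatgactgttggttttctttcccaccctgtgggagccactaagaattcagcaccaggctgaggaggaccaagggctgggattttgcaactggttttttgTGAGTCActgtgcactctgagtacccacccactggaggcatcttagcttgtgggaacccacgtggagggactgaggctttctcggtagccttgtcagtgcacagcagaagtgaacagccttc
The AP-1 letters stood 42 bases before the start in Slamf7, 229 bases before it in Cd84 and 122 bases before it in Cd244a. Over the whole RefSeq table, 6.87% of 27025 promoters held them, and 9.44% of the 551 promoters of panel genes did. The RUNX letters stood 45 bases before the start in Cd84 and 76 bases before it in Cd48, whose promoter is not shown, and 14.2% of all promoters and 15.1% of those of panel genes held them. The interferon regulatory factor motif, GAAA followed by any 2 bases and GAAA again, was in 0 of the 6 member promoters in 3.04% of all promoters and in 7.44% of those of panel genes. These matches describe letters in a window and were searched for with the sequences in view.

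The deposited values are normalized counts, and the whole counts behind them could be recovered. The recovered totals over the 750 genes ranged from 106206 to 1519471 per tumor, and the normalized value of 1 count (the scaling factor) ranged from 0.5893 to 10.48. The highest factor was that of olaparib tumor 1517, which therefore stood apart from the others. Factors also differed between groups, being 0.8101 to 0.8244 in combination tumors and 1.427 to 2.848 in ADU-S100 tumors. They were 0.6821 to 1.487 in vehicle tumors and 0.5893 to 10.48 in olaparib tumors. The 30 genes with the lowest mean level over all tumors served as a background, and their median count was between 3 and 8 in each tumor. Relative to vehicle tumors, the median difference over the 689 genes kept by the filter (at least 20 normalized counts in at least 3 tumors) was 0.44 on the log2 scale for ADU-S100, 0.45 for olaparib and 0.21 for the combination. It was -0.22 between combination and ADU-S100 tumors and -0.15 between combination and olaparib tumors, so member differences are also given relative to these medians. All group differences below are on the log2(normalized count + 1) scale from one limma fit over all 12 tumors, which called 0 of the 689 genes in any comparison at an adjusted p below 0.05. Without olaparib tumor 1521 the fit called 55 genes between olaparib and vehicle, 54 between combination and olaparib and 86 for the interaction, with 0 members among them. The labels give each tumor a number but no litter or day, so p-values measure the spread between these tumors.

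Of the members tested, Slamf7 had the largest difference between combination and vehicle tumors. The study lists this gene, in its supplement, among those most upregulated by the combination in the same tumors, so its combination values are a description without a test. Slamf7 measured 24.6, 28.2 and 11.1 normalized counts in the vehicle tumors, 59.8, 35.4 and 28.5 in the ADU-S100 tumors, 40.9, 83.8 and 23.6 in the olaparib tumors, and 70.5, 96.5 and 89.4 in the combination tumors. Every combination tumor lay above every vehicle and ADU-S100 tumor, whereas olaparib tumor 1517, at 83.8, lay inside the combination range. That olaparib value rested on 8 recovered counts, with an exact 95% Poisson interval of 36.2 to 165 normalized counts, whereas the combination values rested on 87, 117 and 109 counts. The intervals cover counting error only. In the order above, the vehicle values rested on 36, 19 and 16 counts and the ADU-S100 values on 21, 18 and 20. How much of the Slamf7 difference between these groups came from the scaling factors was not tested.

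The mean Slamf7 level was 21.3 ± 9.03 in vehicle tumors, 41.2 ± 16.4 in ADU-S100 tumors, 49.4 ± 31.0 in olaparib tumors and 85.4 ± 13.4 in combination tumors (normalized counts, SD, n = 3 each). In this order of groups, the olaparib range overlapped both its neighbors, and the ADU-S100 range began at 28.5, just above the highest vehicle tumor at 28.2. Combination tumors were 4.12-fold above vehicle tumors, a log2 difference of 2.04 with a standard error (SE) of 0.53, or 1.83 relative to the median of all genes. The log2 difference was 1.09 (SE 0.53) against ADU-S100 and 0.95 (SE 0.53) against olaparib, and the latter was 1.42 without tumor 1517 and 0.52 without olaparib tumor 1521. Against vehicle, the single agents differed by 0.95 (SE 0.53, limma adjusted p = 0.809) for ADU-S100 and 1.09 (SE 0.53, adjusted p = 0.582) for olaparib, and the olaparib difference was 0.62 without tumor 1517 and 1.52 without tumor 1521. After quantile normalization the differences of ADU-S100 and olaparib from vehicle were 0.11 and 0.31. The interaction, that is the ADU-S100 effect in the presence of olaparib less the effect in its absence, was 0.00 (SE 0.75) for Slamf7 with the authors' scaling. It depended on the scaling, being 0.55 after median scaling, which sets the median log2 level of all tumors equal, 0.76 in edgeR with TMM factors and 1.05 after quantile normalization. Among the tumors whose numbers begin with 12, the vehicle tumor measured 24.6 and the combination tumors 70.5 and 96.5. Among those beginning with 15, the vehicle tumors measured 28.2 and 11.1 and the combination tumor 89.4. All ADU-S100 and olaparib tumors have numbers beginning with 15, so number series and treatment are partly confounded in their comparisons with the combination. With the series as a block, Slamf7 differed by 0.98 from ADU-S100 and 0.84 from olaparib. The difference from ADU-S100 was then -0.55 in place of -0.95 for Cd244 and 0.87 in place of 0.52 for Cd48.

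**Figure D1:**
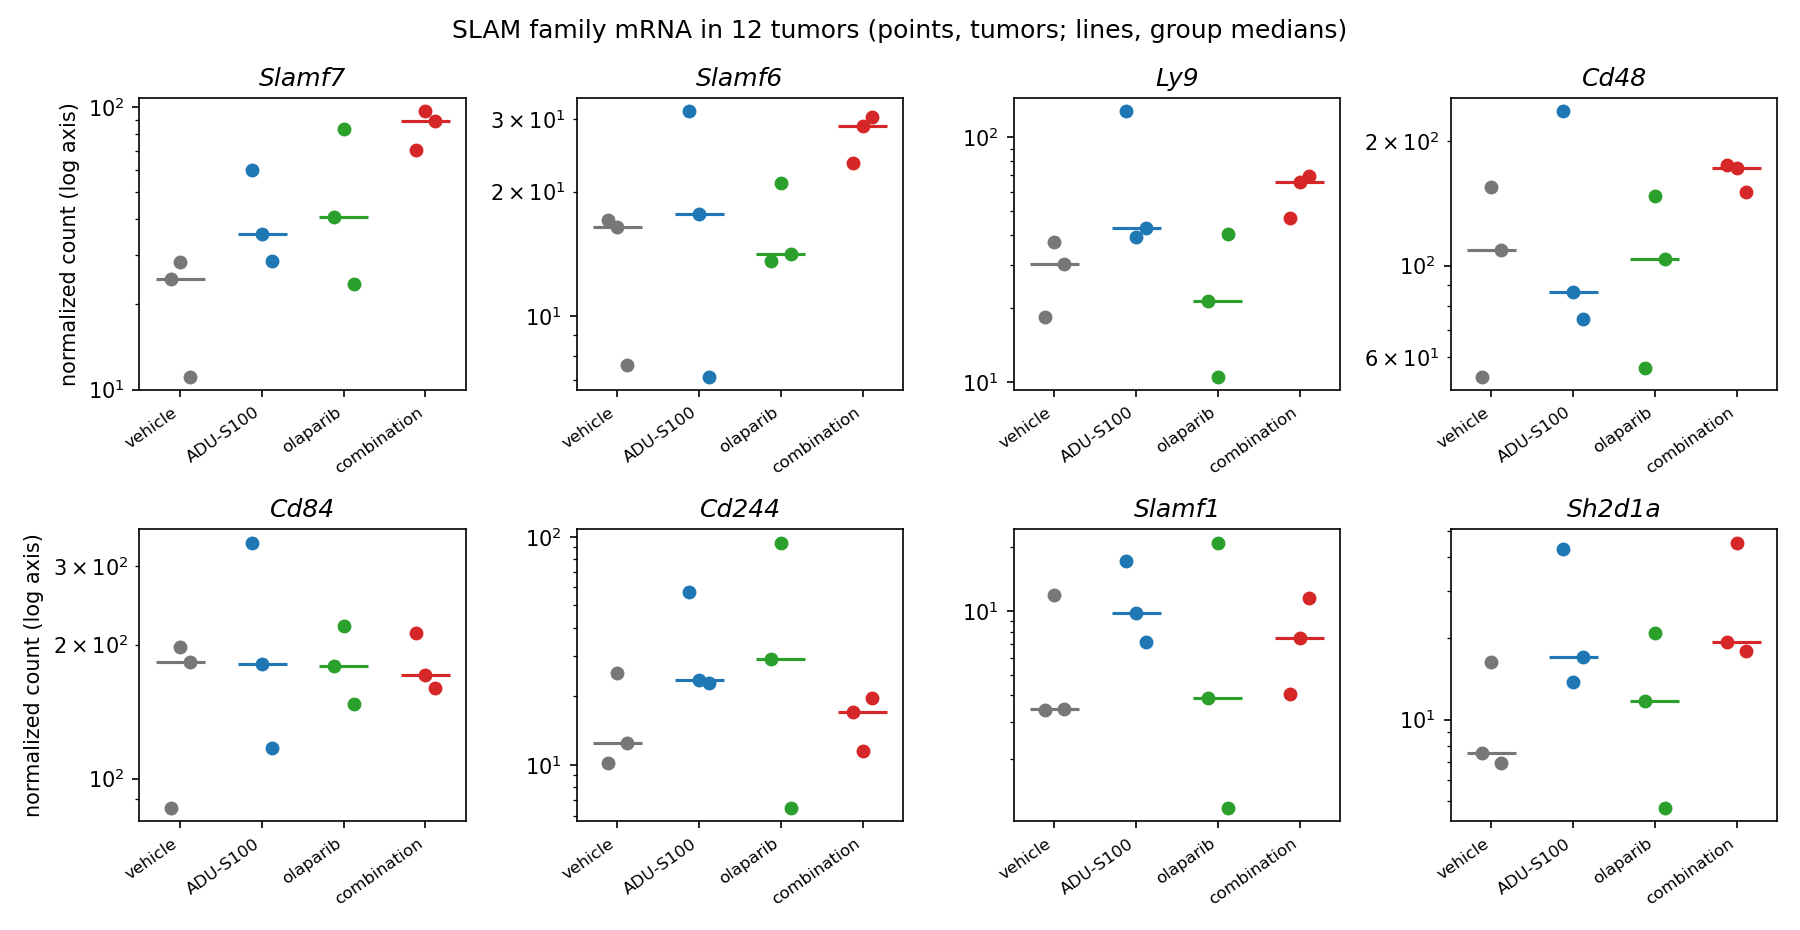
Normalized counts of the 8 SLAM family genes (vertical axes, logarithmic and separate for each gene) in the vehicle, ADU-S100, olaparib and combination groups, with 1 point per tumor and a line at each group median. The 3 combination tumors sat between 70.5 and 96.5 for Slamf7 and between 160 and 212 for Cd84, where the groups overlapped.

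Slamf6 (Ly108), a receptor of T, B and NK cells, measured 17.1, 16.4 and 7.62 normalized counts in vehicle tumors, 31.3, 17.7 and 7.13 in ADU-S100 tumors, 13.6, 21.0 and 14.1 in olaparib tumors and 23.5, 28.9 and 30.3 in combination tumors. The combination tumors lay above all vehicle and olaparib tumors, and ADU-S100 tumor 1506 lay above them. The combination differed from vehicle by 1.03 (SE 0.52, limma adjusted p = 0.652; 0.68 without vehicle tumor 1536 and 0.60 after quantile normalization), from ADU-S100 by 0.74 (SE 0.52, adjusted p = 0.614) and from olaparib by 0.74 (SE 0.52, adjusted p = 0.663). Some of these values rest on few counts: olaparib tumor 1517 held 2 counts of Slamf6 and ADU-S100 tumor 1513 held 5, both below the background of their tumor. The difference from ADU-S100 was 0.21 without tumor 1513 and 1.20 without tumor 1506, and with the background subtracted the differences from ADU-S100 and olaparib were 2.15 and 2.69.

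Ly9 (CD229), a receptor of T and B cells, measured 18.4, 37.2 and 30.5 normalized counts in vehicle tumors, 128, 39.3 and 42.8 in ADU-S100 tumors, 21.4, 10.5 and 40.1 in olaparib tumors and 47.0, 66.0 and 69.7 in combination tumors. Both groups that received ADU-S100 lay above the vehicle tumors without overlap, and olaparib tumors spread over both sides of the vehicle range. The difference from vehicle was 1.10 (SE 0.58, limma adjusted p = 0.809) for ADU-S100, 1.09 (SE 0.58, adjusted p = 0.676) for the combination and -0.38 (SE 0.58, adjusted p = 0.788) for olaparib. Combination tumors were 2.78-fold above olaparib tumors, a log2 difference of 1.47 (SE 0.58, adjusted p = 0.594), and the difference was 1.01 without tumor 1517, where a single count of Ly9 was recovered. Without the same tumor the olaparib difference from vehicle was 0.09 in place of -0.38. It was -0.83 without olaparib tumor 1521 and -1.61 with the background subtracted. Without ADU-S100 tumor 1506, at 128, the ADU-S100 difference from vehicle was 0.56. After quantile normalization the differences from vehicle were 0.36 for ADU-S100 and 0.50 for the combination.

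Cd48, the ligand of CD244 and CD2, measured 53.9, 155 and 109 normalized counts in vehicle tumors, 236, 86.4 and 74.2 in ADU-S100 tumors, 56.5, 147 and 104 in olaparib tumors and 175, 172 and 151 in combination tumors. The combination tumors lay close together and above all olaparib tumors, but they overlapped the vehicle and ADU-S100 tumors. The combination differed by 0.77 (SE 0.56, limma adjusted p = 0.844) from vehicle and by 0.79 (SE 0.56, adjusted p = 0.663) from olaparib. These values were 0.35 without vehicle tumor 1269 and 0.42 without olaparib tumor 1510, and the first was 0.37 in edgeR with TMM factors.

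Cd84, a self-binding receptor of T, B and myeloid cells, measured 85.9, 198 and 183 normalized counts in vehicle tumors, 339, 181 and 117 in ADU-S100 tumors, 179, 220 and 147 in olaparib tumors and 212, 171 and 160 in combination tumors. All 4 groups overlapped. The combination differed from vehicle by 0.30 (SE 0.47, limma adjusted p = 0.989), which came to 0.08 relative to the median of all genes, and without vehicle tumor 1269 the difference was -0.08.

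Cd244 (2B4), a receptor of NK cells and cytotoxic T cells, measured 10.2, 25.3 and 12.5 normalized counts in vehicle tumors, 57.0, 23.6 and 22.8 in ADU-S100 tumors, 29.2, 94.3 and 6.48 in olaparib tumors and 17.0, 11.5 and 19.7 in combination tumors. The combination tumors overlapped the vehicle tumors and lay below all ADU-S100 tumors. The recovered counts behind these values were 15, 17 and 18 in vehicle, 20, 12 and 16 in ADU-S100, 15, 9 and 11 in olaparib and 21, 14 and 24 in combination tumors. They thus stayed between 9 and 24 while the factors that multiply them differed up to 17.8-fold, and they were 1.57 to 3.78 times the background of their tumor. The highest Cd244 value, 94.3, was that of olaparib tumor 1517, and it rested on 9 counts times the factor of 10.48. The combination differed from vehicle by 0.08 (SE 0.78, limma adjusted p = 0.989) and from olaparib by -0.74 (SE 0.78, adjusted p = 0.750), and the latter was 0.15 without tumor 1517 and -1.68 without tumor 1521. How much of the Cd244 differences came from the scaling of low counts was not tested.

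Slamf1 (CD150), a self-binding receptor of activated lymphocytes, measured 3.41, 11.9 and 3.46 normalized counts in vehicle tumors, 17.1, 9.82 and 7.13 in ADU-S100 tumors, 3.90, 21.0 and 1.18 in olaparib tumors and 4.05, 7.42 and 11.5 in combination tumors. These values came from 2 to 14 recovered counts, which were 0.286 to 2 times the background of the tumor, but Slamf1 is itself 1 of the 30 genes that define this background. Slamf1 was the member that did not pass the filter on low values, and it was not part of the limma fit.

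**Figure D2:**
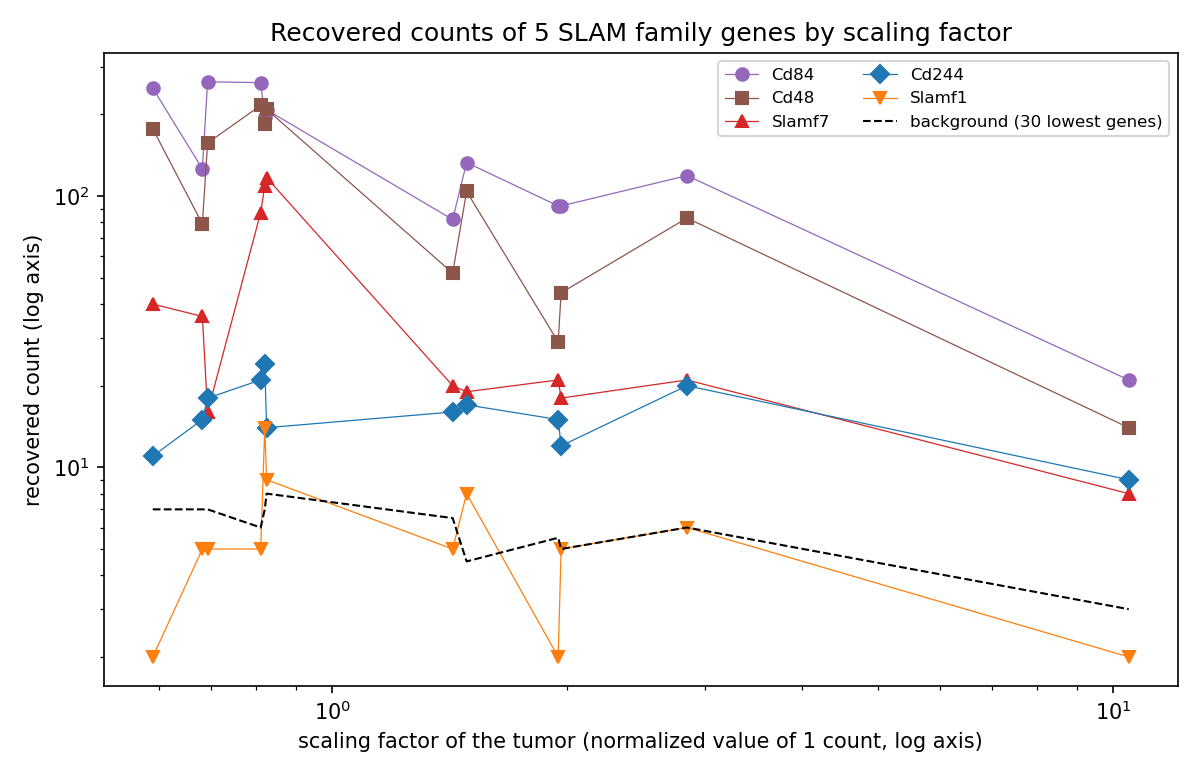
Recovered counts (vertical axis, logarithmic) of Cd84, Cd48, Slamf7, Cd244 and Slamf1 against the scaling factor of each tumor (horizontal axis, logarithmic), with 1 point per tumor and a dashed line for the background count. Cd244 stayed between 9 and 24 counts and Slamf1 at 2 to 14 counts over factors from 0.5893 to 10.48, whereas the 3 Slamf7 points at 87 to 117 counts are the combination tumors.

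The adaptor gene Sh2d1a measured 7.5, 16.4 and 6.93 normalized counts in vehicle tumors, 42.7, 13.8 and 17.1 in ADU-S100 tumors, 11.7, 21.0 and 4.71 in olaparib tumors and 19.4, 45.3 and 18.0 in combination tumors. The combination tumors lay above all vehicle tumors, the nearest pair being 18.0 and 16.4, and overlapped both single-agent groups, the olaparib group only through tumor 1517, where 2 counts gave a value of 21.0 with an interval of 2.54 to 75.7. Combination tumors were 2.49-fold above vehicle tumors, a log2 difference of 1.32 (SE 0.62, limma adjusted p = 0.652), and the difference was 0.90 without combination tumor 1270, 0.85 with a pseudocount of 10 and 2.02 with the background subtracted. The recovered counts were 24, 55 and 22 in combination tumors and 15 or fewer in the other 9 tumors. These counts are unscaled, and the totals over all genes differed as well. The totals were 1339258 to 1491854 in combination, 372390 to 683982 in ADU-S100, 106206 to 1392128 in olaparib and 632152 to 1519471 in vehicle tumors. With scaling, the combination differed from ADU-S100 by 0.21 (SE 0.62, limma adjusted p = 0.870).

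Across the members that could be tested, the 7 differences between combination and vehicle were all positive with the authors' scaling, with a median of 1.03 beside 0.21 over all genes, whereas Cd244 came to -0.13 after median scaling and both Cd244 and Cd84 were below 0, at -0.24 and -0.10, in edgeR with TMM factors. None was called by limma (0 of 7, with 0% of all 689 genes called), and edgeR's quasi-likelihood test, run on the counts, also called 0 of 7 with either set of factors (0% of genes). At an unadjusted p below 0.05, limma gave 1 of 7 members, Slamf7, beside 7.69% of all genes. At that unadjusted threshold edgeR gave Slamf7 with the authors' factors, beside 7.55% of genes, and Slamf7 and Sh2d1a with TMM factors, beside 9%. Nothing is read from the place of Slamf7 in these counts, since the study had picked it for the combination. By ranges alone, 4 of 8 members, Slamf6, Slamf7, Ly9 and Sh2d1a, were higher in every combination tumor than in every vehicle tumor, beside 17.3% of all 750 genes. After median scaling they were 3 of 8, Slamf7, Ly9 and Sh2d1a, beside 10.7% of genes.

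In the other comparisons limma called 0 of 7 members as well, with 0% of genes called in each. ADU-S100 tumors lay above vehicle tumors without overlap for 2 of 8 members, Slamf7 and Ly9, beside 15.9% of genes, and after median scaling for Cd244 and Sh2d1a instead, beside 10.5%. Olaparib tumors lay above vehicle tumors for 0 of 8 members, beside 4% of genes, and after median scaling for Slamf7, beside 6.53%. Combination tumors lay above ADU-S100 tumors for 1 member, Slamf7, beside 9.6% of genes, and below them for 1 member, Cd244, beside 22.7%. They lay above olaparib tumors for 3 of 8 members, Slamf6, Cd48 and Ly9, beside 10.3% of genes. After median scaling, combination tumors lay above ADU-S100 tumors for Slamf6, Slamf7 and Cd48, beside 15.1% of genes, and above olaparib tumors for Slamf6, Slamf7 and Sh2d1a, beside 7.47%.

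EdgeR called 0 of 7 members in each of these comparisons too, with 0% of genes called. At an unadjusted p below 0.05, limma gave 1 member, Ly9, between combination and olaparib tumors, beside 7.26% of genes. It gave 0 of 7 members for ADU-S100 against vehicle, beside 4.79% of genes, for olaparib against vehicle, beside 7.26%, for the combination against ADU-S100, beside 9.14%, and for the interaction, beside 10.9%. EdgeR with the authors' factors gave 0 of 7 members at that unadjusted threshold in these 5 comparisons, beside 5.95% of genes for ADU-S100 and 12.2% for olaparib against vehicle, 8.27% and 13.2% for the combination against ADU-S100 and olaparib, and 18% for the interaction. With TMM factors it gave Slamf7 for the combination against ADU-S100, beside 16.7% of genes, and Slamf7 and Sh2d1a against olaparib, beside 14.2%. With these factors it gave 0 of 7 members for ADU-S100 and for olaparib against vehicle, beside 5.08% and 7.84% of genes, and for the interaction, beside 14.4%. These comparisons share tumors with each other, the combination and vehicle tumors in particular, and are not independent. An exact test of 3 tumors against 3 cannot go below a two-sided p of 0.1.

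**Figure D3:**
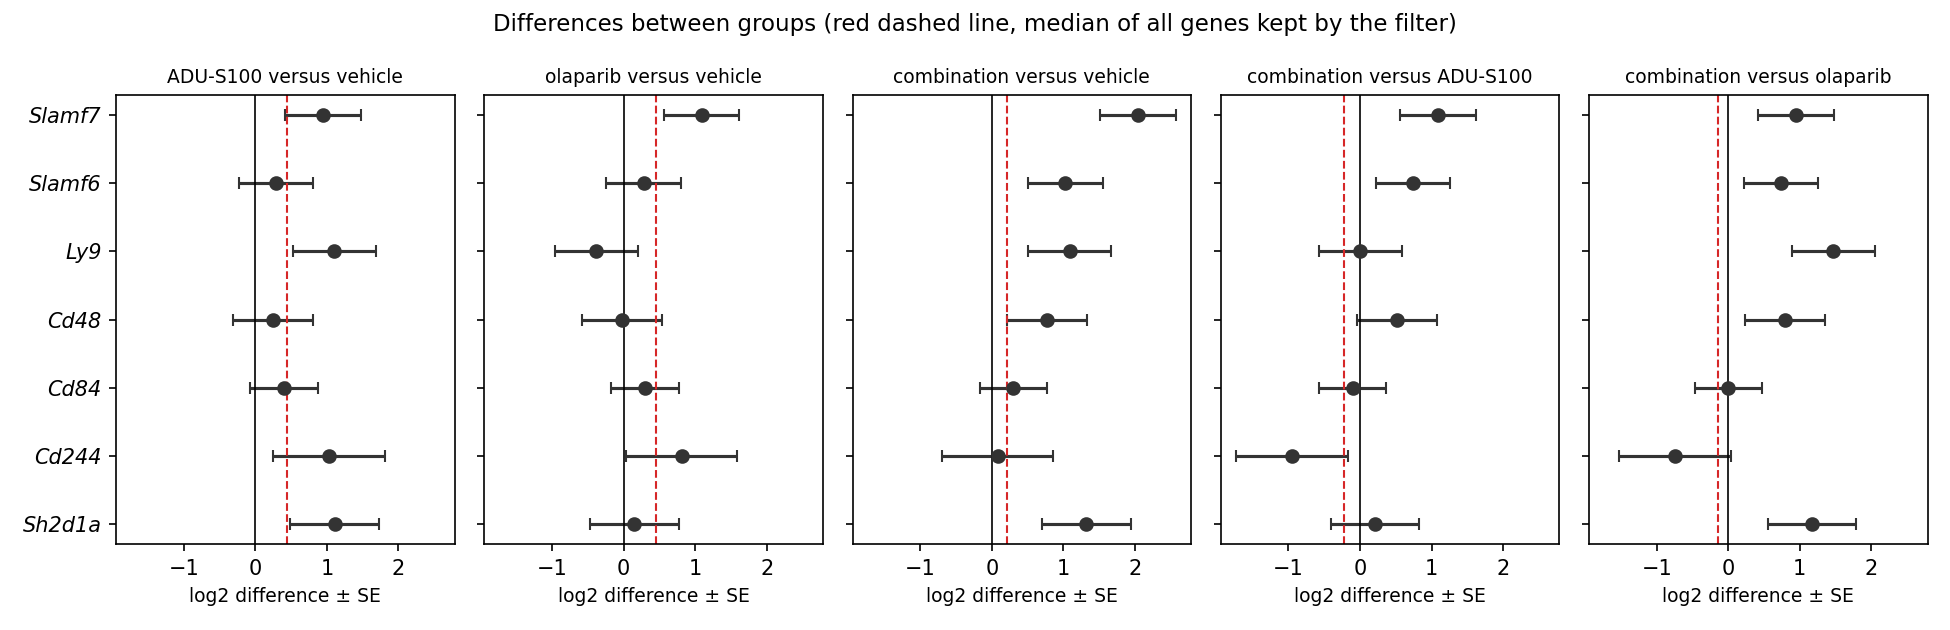
Log2 differences between groups (horizontal axes) with their SE for the 7 members that passed the filter, 1 panel per comparison, with a solid line at 0 and a red dashed line at the median of all 689 genes. Slamf7, at 2.04 in the comparison of combination with vehicle, lay farthest from the median there, and the Cd84 points lay within 1 SE of the median in all panels.

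Since SLAM genes are expressed by leukocytes, each member was also set against the mean log2 level of 6 leukocyte genes (Ptprc, Cd53, Cd37, Itgb2, Lcp1 and Ikzf1) in the same tumor, a ratio on which the scaling factor has little bearing. In bulk tumor RNA, fewer cells of a type and less RNA per cell cannot be told apart. The Slamf7 log2 ratio was -1.89, -3.27 and -3.79 in vehicle tumors, -2.89, -2.79 and -2.24 in ADU-S100 tumors, -2.15, -2.25 and -2.13 in olaparib tumors, and -1.49, -1.13 and -1.07 in combination tumors. Relative to leukocyte genes, every combination tumor therefore lay above the 9 other tumors, which held for 1 of 8 members and for 2.13% of all genes. Without this division, 0 of 8 members had every combination tumor above the 9 others, beside 2.93% of genes, and relative to the median of each tumor Slamf7 did, beside 3.73%. Since the study had picked Slamf7 for the combination in these tumors, nothing is read from its place beside these shares. The mean ratio in combination tumors exceeded that in vehicle tumors by 1.76 for Slamf7, 1.03 for Sh2d1a, 0.81 for Ly9, 0.74 for Slamf6 and 0.48 for Cd48. The same difference was 0.07 for Slamf1, 0.01 for Cd84 and -0.21 for Cd244. For 4 members, Slamf7, Cd48, Ly9 and Sh2d1a, combination and vehicle tumors did not overlap in this ratio, beside 7.87% of genes.

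**Figure D4:**
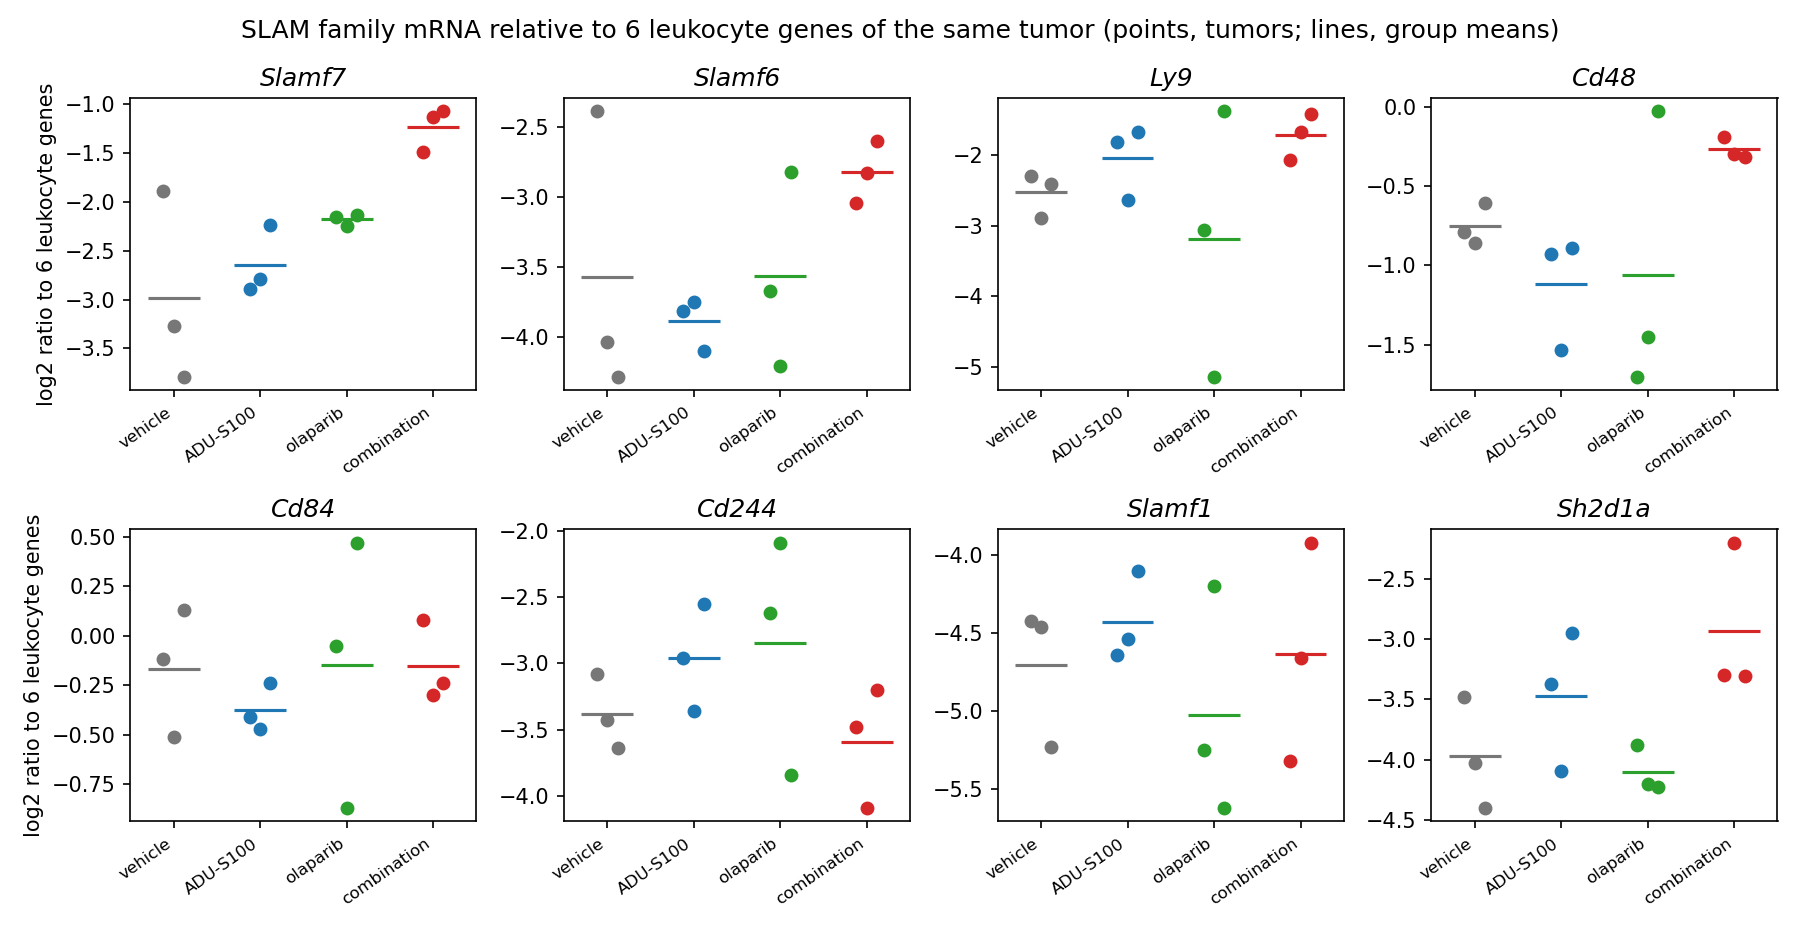
Log2 ratio of each SLAM family gene to the mean of 6 leukocyte genes in the same tumor (vertical axes, separate for each gene), with 1 point per tumor and a line at each group mean. For Slamf7 the combination tumors sat between -1.49 and -1.07, above the 9 other tumors, of which the highest was a vehicle tumor at -1.89, and for Cd84 the 4 groups overlapped.

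T cell markers were higher in the same tumors, without passing the test. All 13 T cell markers tested (Cd3e, Cd3g, Icos and others) had a positive difference between combination and vehicle, with a median of 1.24 beside 0.21 over all genes, and 12 of 13 did after median scaling, the exception being Tcf7. Limma called 0 of 13, and 5 of 13 had an unadjusted p below 0.05, beside 7.69% of all genes. The summed level of the 14 T cell markers on the panel was 784 to 1049 in combination tumors, 363 to 739 in vehicle tumors, 464 to 909 in ADU-S100 tumors and 456 to 1163 in olaparib tumors, and none was listed at 0 throughout a group. Set against the mean of the 13 T cell markers, the Slamf7 log2 ratio was -0.43 to 0.52 in vehicle, 0.11 to 0.40 in ADU-S100, 0.32 to 0.63 in olaparib and 0.73 to 1.26 in combination tumors. In this ratio, too, the combination tumors were above the 9 others for Slamf7 and for no other member, beside 0.933% of all genes. Nothing is read from this share, because the study had picked Slamf7 in these tumors. The mean Slamf7 difference from vehicle was 0.94. For the other members this difference was 0.21 for Sh2d1a, -0.01 for Ly9, -0.07 for Slamf6, -0.33 for Cd48, -0.75 for Slamf1, -0.80 for Cd84 and -1.03 for Cd244. The summed level of 9 NK cell markers was 350 to 430 in combination tumors, 189 to 327 in vehicle tumors, 312 to 951 in ADU-S100 tumors and 153 to 1205 in olaparib tumors. Of the 4 plasma cell markers, 3 were tested, and limma called 0 of 3, with a median of 0.62 between combination and vehicle that was 0.16 in edgeR with TMM factors. Other markers differed as well, with 0 called by limma: between combination and vehicle 7 of 8 NK cell markers (median 0.69), 6 of 6 cytotoxic genes (0.85) and 7 of 7 neutrophil markers (0.97) were higher. After median scaling these counts were 7 of 8, 5 of 6 and 6 of 7, after quantile normalization 5 of 8, 5 of 6 and 7 of 7, and in edgeR with TMM factors 5 of 8, 5 of 6 and 5 of 7. Against the single agents these lists lay the other way for the most part: the median of the NK cell markers was -1.05 against ADU-S100 and -0.16 against olaparib, and 0 of 6 cytotoxic genes were higher against either (medians -0.67 and -0.42). The medians of the neutrophil markers were -0.33 and -0.10. All 6 stromal genes (median -1.18) were lower in combination than in vehicle tumors, also under these scalings. The same 6 genes were lower in olaparib than in vehicle tumors (median -1.57). Between combination and vehicle, 7 of 12 macrophage and monocyte markers were higher (median 0.07, beside 0.21 over all genes), as were 4 of 5 dendritic cell markers (0.54). All 3 epithelial genes (0.47) and the 2 B cell markers tested (0.60) were higher too. The part of these cell types in the member differences was not tested.

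The other genes of the pathway on the panel were 12 adaptors, kinases, phosphatases, ligands and cytokines, of which 9 passed the filter. Limma called 0 of 9 in any comparison, and between combination and vehicle 7 were higher and 2 lower, with a median of 0.26 beside 0.21 over all genes. The direction of this list depended on the scaling: 5 were higher and 4 lower after median scaling (median 0.05), 3 and 6 after quantile normalization (-0.09), and 4 and 5 in edgeR with TMM factors (-0.21). Sh2d1b1, which encodes the adaptor EAT-2 that works with SLAMF7 in NK cells, measured 37.1 to 42.9 normalized counts in combination tumors and 19.8 to 35.7 in vehicle tumors, a log2 difference of 0.49 (SE 0.47, limma adjusted p = 0.949). The kinase gene Fyn measured 2258 to 2546 in combination and 1681 to 3567 in vehicle tumors, and Lck, the main kinase of T cell receptor signaling, measured 99.6 to 143 and 92.8 to 131. These ranges overlapped for both kinases, and their log2 differences were -0.06 and 0.11. Ptprc, the phosphatase CD45 of all leukocytes, differed by 0.55 (SE 0.57), Bcl10, a signaling scaffold of lymphocytes, by 0.65 (SE 0.36), and Itgam, a myeloid integrin, by -0.16 (SE 0.63). Cd2, the other partner of CD48, rested on 3 to 19 recovered counts and did not pass the filter.

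Likeness was measured as the SD of the log2 ratio of 2 genes over the 12 tumors, which is small when the genes keep a constant ratio. The closest pair of members was Cd48 and Cd84, with an SD of 0.44, followed by Slamf6 and Slamf7 with 0.54, and the farthest pair was Cd244 and Ly9 with 1.46. Olaparib tumor 1517 weighed on these pairs: without it the SD of Cd244 and Ly9 was 0.84, the closest pair was Cd48 and Ly9 (0.40) and the farthest Slamf7 and Cd244 (1.02). Over all genes kept, Slamf7 was closest to Icos (0.29), a costimulator of activated T cells, and Cd3g (0.35), a chain of the T cell receptor complex, beside a median of 0.98. Sh2d1a was closest to Bst1 (0.48) and Cd3g (0.49), and Slamf6 to Irf1 and Spn (0.32 each). Cd48 was closest to Irf8 (0.23), a transcription factor of myeloid and B cells, and Ly86 (0.24), and Cd84 to Ticam2 (0.24). Cd244 was closest to Sbno2 and Klrg1 (0.32 each), Ly9 to Ncf4 (0.57) and Clec5a (0.58), and Slamf1 to Cxcr3 (0.48) and Dll4 (0.49). The genes share tumors and scaling factors, so these SDs are descriptions, and for genes with few counts, such as Cd244 and Slamf1, the common factor enters every value.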

How the data were processed

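RNA from 12 tumors was measured on the nCounter PanCancer Immune Profiling Panel. The authors processed the counts with nSolver 4.0 (background correction, then factors from positive controls and 8 housekeeping genes), and the deposited values are a normalized signal on a linear scale. These values were whole multiples of a step in each tumor (100% of values below 1000 counts, within 0.01 of a count), which gave the counts. Control genes were not used here.

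Groups were taken from the labels. Limma 3.58.1 in R 4.3.3 fitted log2(value + 1) over all 12 tumors, after a filter of at least 20 in 3 tumors, with Benjamini-Hochberg adjustment over 689 genes. The script was tested on simulated data. Alternatives were a pseudocount of 10, other filters and scalings, edgeR 4.0.16 on the recovered counts, the methods' one-way comparison with Holm-Sidak adjustment, the number series as a block, tumors left out, and, added after seeing the data, background subtraction.

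The members and gene lists were chosen with earlier results of these data known. Named genes were the members, 5 partners, the 2 partners with the largest positive and the 2 with the most negative difference between combination and vehicle, and the 2 genes closest to each member, of which 1 is not reported here. Promoter sequences are from RefSeq (GRCm38.p6). Figures were drawn with matplotlib 3.10.9.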

Additional observations from a re-analysis of the deposited data

Results flagged for a closer look

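With all 12 tumors, the effect of ADU-S100 on Cd244 ran in opposite directions without and with olaparib, and this rested on olaparib tumor 1517, whose 9 counts gave the highest value. The ADU-S100 tumors lay 0.59 to 1.87 above the vehicle mean on the log2 scale, whereas the combination tumors lay below the olaparib mean, at -1.15 to -0.43 relative to it. The difference of these effects, the interaction, was -1.77 (SE 1.11, limma adjusted p = 0.451), relative to a median of -0.55 over all genes. Over the alternatives that kept all tumors, it ran from -2.24 in edgeR with the authors' factors to -0.32 after quantile normalization. Without olaparib tumor 1517 the difference between combination and olaparib was 0.15, so that both effects were positive, and the interaction was -0.88. Without olaparib tumor 1521 these values were -1.68 and -2.71. The recovered counts of Cd244 were 9 to 24 in all 12 tumors. A negative interaction was not particular to Cd244. It was also negative for 8 of 8 NK cell markers (median -1.90) and 6 of 6 cytotoxic genes (median -2.21), with 0 called by limma.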

How the results depend on the processing

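The count of members called stayed at 0 in every comparison and alternative that was run, except under the methods' test. The fit on the compared groups alone was not run for the interaction, and the methods' test was run for the 3 combination comparisons. Without olaparib tumor 1521, limma called 55, 54 and 86 genes between olaparib and vehicle, between combination and olaparib, and for the interaction, with 0 members among them. The other alternatives, the methods' test aside, called at most 2 genes per comparison. The methods' one-way comparison with Holm-Sidak adjustment on unlogged values called 1 member, Slamf7, between combination and vehicle tumors and 1 member, Slamf7, between combination and ADU-S100 tumors, and called 35 and 38 of all 750 genes there. Between combination and olaparib tumors it called 0 members and 27 genes, with a Holm-Sidak p of 0.052 for Slamf7. This adjustment covers the 3 comparisons of each gene and not the number of genes, unlike that of limma. The study used the same kind of test for its top genes in these tumors, so nothing is read from the Slamf7 calls. The log2 difference of Slamf7 between combination and vehicle was 1.46 after quantile normalization to 2.41 after background subtraction, and 1.65 to 2.29 with single tumors left out. With the tumor number series as a block it was 1.99. Relative to leukocyte genes it was 1.35 to 2.30 with single tumors left out, the highest without vehicle tumor 1269, and the same ratio of Sh2d1a was 1.74 after background subtraction in place of 1.03. Of the 42 log2 differences of members, 21 changed sign under at least 1 alternative, among them those of Cd84 and Cd244 between combination and vehicle. No paired analysis was possible because each tumor number occurs once. Counts were low beside the background, in some tumors at least, for Cd244 (1.57 to 3.78 times it), Ly9 (0.333 to 12.1), Slamf6 (0.667 to 5.29) and Sh2d1a (0.667 to 6.88). The same held for Slamf1 (0.286 to 2) and for Slamf7 outside the combination group. Slamf7 was 2.29 to 5.14 times the background in vehicle tumors and 14.5 to 15.6 times in combination tumors.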
